A study of Homo sapiens with 12 samples.

Results

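Metallothionein genes, the zinc exporter SLC30A1 and the transcription factor MTF1 were followed in SHI-1 cells treated with disulfiram (DSF), niclosamide (NSM) or both. The genes were taken by name: MT2A, every gene named MT1 plus a single capital letter, SLC30A1 and MTF1. The rule found 9 of the 14866 genes listed, namely MT2A, the 6 MT1 genes MT1B, MT1E, MT1F, MT1G, MT1H and MT1X, and SLC30A1 and MTF1, and all 4 groups of libraries hold a value for each. MT1A, MT1L and MT1M were not analysed here. SHI-1 is a human acute myeloid leukemia cell line positive for the MLL-AF6 fusion. Cells were exposed for 16 h to DMSO, to 0.3 µM DSF with 1 µM copper, to 5 µM NSM, or to all of these agents together (DSF+NSM), and each group has 3 libraries from independent experiments. The sources used here leave unstated whether copper was added to the DMSO and NSM cultures. DSF below always means DSF with copper, and the effects of the 2 agents cannot be told apart.

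Metallothioneins are small cysteine-rich proteins that bind zinc and copper ions and buffer the free metal in the cell. MTF1 is a zinc-finger protein that senses zinc, enters the nucleus when free zinc rises and binds metal response elements in the promoters of metallothionein genes and of SLC30A1, which carries zinc out of the cell across the plasma membrane. DSF is used against alcohol dependence and its metabolites bind copper, and NSM is a drug against tapeworms.

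Values are normalized counts, that is, estimated reads per gene divided by a factor for the library. The lowest values of a library rise in steps of 0.756 to 2.22 normalized counts, which gives an estimated depth of 10.2 to 19.0 M reads per library. The sums over all genes ran from 14.0 to 14.4 M normalized counts in DMSO libraries and from 22.7 to 25.6 M in DSF+NSM libraries. NSM replicate 3 stood apart from its group, with Spearman correlations over genes of 0.939 and 0.950 to the other NSM libraries, against 0.980 to 0.996 within the other groups. The 10 myeloid markers were all detected, with summed levels of 66109 to 75329 in DMSO, 45012 to 51295 in DSF, 30141 to 36578 in NSM and 33222 to 33853 in DSF+NSM, whereas the erythroid markers were not listed and the B-cell marker MS4A1 was at 0. The marker sums were lower in all 3 treated groups than in DMSO, and their part in the results was not tested. MPO, at 14453 to 62640 normalized counts, was the largest part of every sum, so the sums do not show that the other markers fell. In bulk RNA, fewer cells of a type and less RNA per cell cannot be told apart.

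The 7 metallothionein genes lie within 75.61 kb on the long arm of chromosome 16 (GRCh38, GENCODE 44, chr16:56608584-56684196). MT2A (chr16:56608584-56609497) stands at the left end of that interval and MT1X (chr16:56682470-56684196) at the right end, and MT1G (chr16:56666730-56668065) is the only member on the minus strand. MT1E lies at chr16:56625475-56627112, MT1B at chr16:56651886-56653204, MT1F at chr16:56657731-56660698 and MT1H at chr16:56669814-56671129. SLC30A1 (chr1:211571568-211579161) and MTF1 (chr1:37809574-37859592) are both on the minus strand of chromosome 1. The promoter sequences of 6 of the 9 genes, the 250 bases before the start of transcription in RefSeq on GRCh38.p14, were searched for the core of the metal response element, TGCACNC or TGCGCNC, on either strand (GNGTGCA or GNGCGCA on the other strand). The sequences that hold a core are shown because MTF1 is known to bind this element, and capitals mark each match. They cover chr16:56608334-56608583 (MT2A), chr16:56669564-56669813 (MT1H), chr16:56682220-56682469 (MT1X), chr16:56651636-56651885 (MT1B) and chr1:211579162-211579411 (SLC30A1, minus strand), and the others are on the plus strand.
MT2A: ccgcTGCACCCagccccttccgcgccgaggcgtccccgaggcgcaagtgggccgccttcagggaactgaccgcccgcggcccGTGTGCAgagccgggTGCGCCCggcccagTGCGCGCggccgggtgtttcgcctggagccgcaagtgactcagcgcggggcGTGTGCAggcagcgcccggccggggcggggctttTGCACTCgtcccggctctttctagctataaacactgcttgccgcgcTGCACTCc
MT1H: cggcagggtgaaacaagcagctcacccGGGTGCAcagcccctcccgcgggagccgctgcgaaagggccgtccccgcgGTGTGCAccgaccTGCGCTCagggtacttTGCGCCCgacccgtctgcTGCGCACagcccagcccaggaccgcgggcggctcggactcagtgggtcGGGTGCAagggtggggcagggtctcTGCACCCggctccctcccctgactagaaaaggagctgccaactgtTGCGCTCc
MT1X: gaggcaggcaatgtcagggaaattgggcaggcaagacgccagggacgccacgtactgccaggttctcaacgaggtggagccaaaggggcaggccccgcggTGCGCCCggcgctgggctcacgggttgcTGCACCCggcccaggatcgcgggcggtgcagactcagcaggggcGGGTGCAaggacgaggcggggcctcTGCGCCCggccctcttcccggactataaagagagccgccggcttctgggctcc
MT1B: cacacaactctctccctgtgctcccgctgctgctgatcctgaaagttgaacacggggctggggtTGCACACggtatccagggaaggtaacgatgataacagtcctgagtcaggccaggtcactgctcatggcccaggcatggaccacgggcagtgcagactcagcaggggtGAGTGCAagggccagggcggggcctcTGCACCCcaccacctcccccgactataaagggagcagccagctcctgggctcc
SLC30A1: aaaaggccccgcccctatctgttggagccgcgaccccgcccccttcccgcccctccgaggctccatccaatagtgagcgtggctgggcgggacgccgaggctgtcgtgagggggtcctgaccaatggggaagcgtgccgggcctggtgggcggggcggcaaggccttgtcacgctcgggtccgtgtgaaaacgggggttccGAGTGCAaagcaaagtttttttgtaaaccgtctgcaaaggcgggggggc

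MT1H held 8 cores, MT2A 7, MT1X 4, MT1B 3 and SLC30A1 1, and no match overlapped another. The promoter of MTF1 (chr1:37859593-37859842) held 0. Of 35116 promoters of the same length, 24.8% held at least 1 core, 1.58% at least 3, 0.37% at least 4, 0.0313% at least 7 and 0.0171% at least 8. A core at bases -53 to -47 from the start was present in MT1X, MT1B and MT1H, and MT2A had one a base further upstream, at -54 to -48. MT2A and MT1H also shared a core at -8 to -2. A match of these letters is a description of the sequence and does not show that MTF1 was bound.

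**Figure D1:**
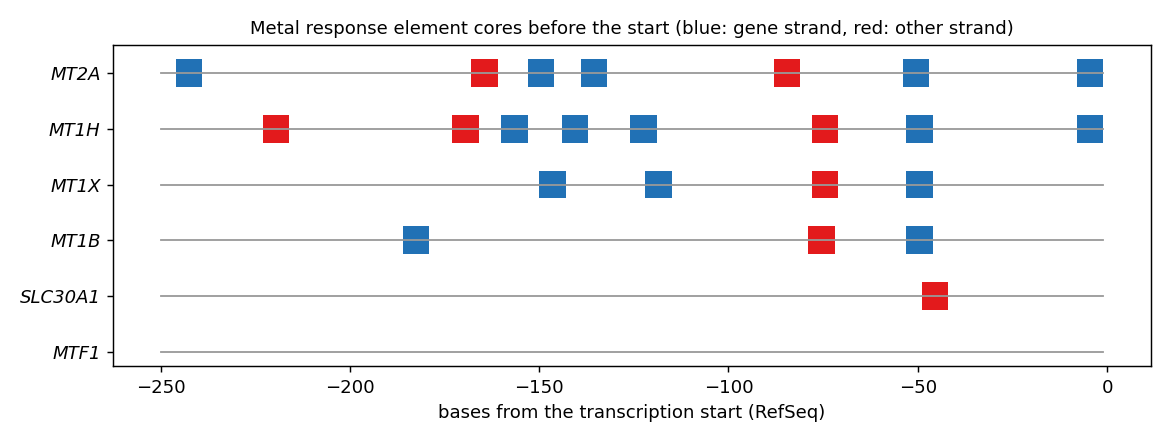
Positions of the metal response element cores in the 250 bases before the transcription start, with distance from the start in bases on the x axis and 1 line per gene. Blue boxes are matches on the strand of the gene and red boxes matches on the other strand, and the 4 metallothioneins carry 3 to 8 cores while SLC30A1 carries 1 and MTF1 0.

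Near-identical copies can exchange reads, so the sequence shared between genes was counted in windows of 43 bases over each canonical transcript. MT1X shared the largest part, 190 of 362 windows (52.5%), of which 124 lie in a long non-coding RNA that overlaps it on the same strand and 54 occur in MT1G. MT1H shared 93 of 355 windows (26.2%), 71 of them with MT1HL1, a copy on another chromosome. MT1G shared 87 of 368 windows (23.6%) and MT1B 79 of 351 (22.5%), the latter with an overlapping non-coding RNA only. MT2A shared 67 of 359 windows (18.7%), MT1E 97 of 704 (13.8%), MT1F 30 of 383 (7.83%), MTF1 106 of 7895 (1.34%) and SLC30A1 0 of 5851. A read pair has another end that can fall in unique sequence, which lowers the share for pairs. Only exact matches to annotated transcripts were counted, and genes were not weighted by their level. The shares are therefore no upper limits for the reads exchanged, least of all for a weak gene beside a strong copy. The values of 8 of the 9 genes were whole multiples of the library's step in every library with a value above 0, and those of MT1E were not. The tolerance was 0.02 of a step, widened in proportion to the value, so the check is looser for the most abundant genes. How shared reads were assigned could not be read from the values, and the levels of all 7 metallothioneins are uncertain by the amount exchanged.

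SLC30A1 and 6 of the 7 metallothioneins, MT1E being the exception, rose with DSF, and all 8 were higher with DSF+NSM than with DSF. MT2A was 28.9-fold and MT1X 186-fold higher in DSF than in DMSO libraries, and in DSF+NSM they were 139-fold and 1243-fold higher. MT1B, MT1G and MT1H were listed at 0 in DMSO and reached means of 763, 493 and 433 normalized counts with both drugs. With NSM, MT1X was 3.71-fold and MT1F 1.54-fold higher, and the other metallothioneins and SLC30A1 were not called. MTF1 itself rose 1.50-fold with DSF, 1.53-fold with NSM and 2.11-fold with both. In the fit across the 13502 genes with at least 10 normalized counts in at least 3 libraries (limma, Benjamini-Hochberg adjusted p under 0.05, differences on the scale of log2(normalized count + 1)), 8 of the 9 genes were higher in DSF than in DMSO, against 11.9% of all genes. In NSM 3 were higher than in DMSO (25.4% of all genes), and in DSF+NSM 9 were (28.3%). DSF+NSM exceeded DSF for 9 genes (21.7% of all genes) and NSM for 9 (20.3%). Scaled to equal sums, 8 of the 9 genes were tested and 8 were higher in DSF+NSM than in DMSO, whereas the share of all genes called higher fell to 11.3% and the share called lower rose from 24.5% to 56.3%. Against DSF 6 were then higher (7.22% of all genes). MT1H reached 10 normalized counts in 1 library outside DSF+NSM and MT1E in none. Both genes thus entered the fit only through DSF+NSM, the group where they were high, and were bound to differ there. They are among the 9 called in each comparison of DSF+NSM with another group, and those calls are no support for a response. All treatments were set against the same 3 DMSO libraries.

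**Figure D2:**
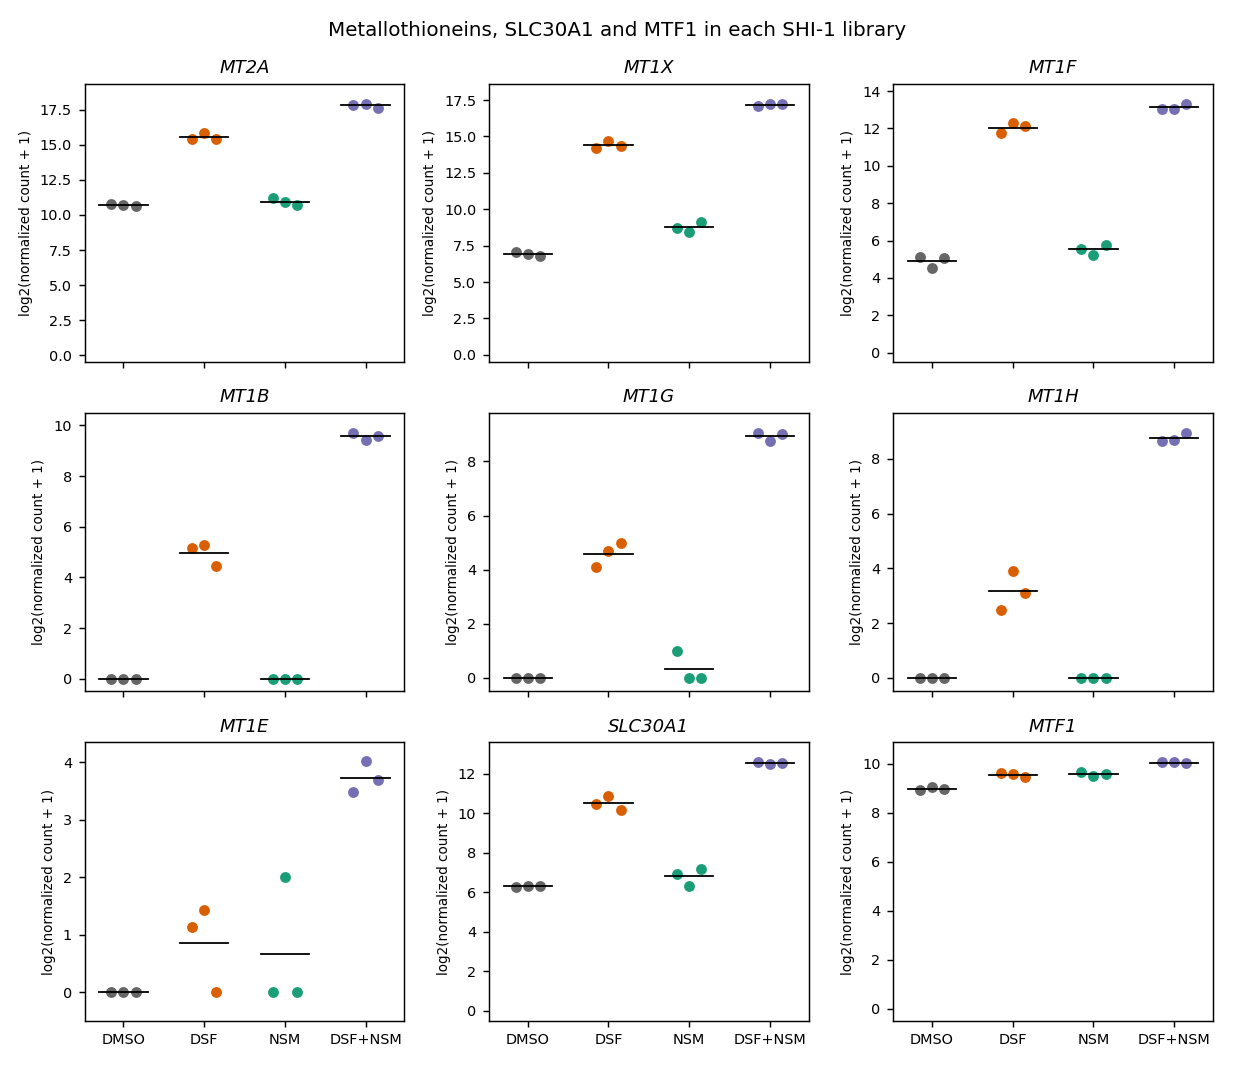
Level of each gene in the 12 libraries, as log2(normalized count + 1) on a y axis that starts near 0 and has its own top for each gene. Points are libraries and lines the group means of 3 libraries, and for MT2A, MT1X, MT1F and SLC30A1 the DSF and DSF+NSM libraries lie above every DMSO and NSM library. Those of MT1B, MT1G and MT1H do too, with DMSO and NSM at 0 or 1 read. Of all genes tested, 33.4% had all DSF, 29.1% all NSM and 36.4% all DSF+NSM libraries above every DMSO library. All DSF+NSM libraries were above every DSF library for 31.2% and above every NSM library for 22.2%.

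MT2A, the most abundant metallothionein in these cells, was listed at 1749.7, 1709.9 and 1576 normalized counts in DMSO replicates 1 to 3, and at 43364, 58169 and 43983 in the DSF libraries. The NSM libraries held 2362, 1953 and 1694 and the DSF+NSM libraries 238399, 251802 and 208773. The DSF and DSF+NSM libraries overlapped neither each other nor DMSO, and NSM replicate 3 lay within the range of DMSO. MT2A rose by 4.84 (SE 0.15) on the log2 scale with DSF (adjusted p = 8.29e-10) and by 7.11 with DSF+NSM (adjusted p = 9.8e-12). From DSF to DSF+NSM the level rose 4.80-fold, a difference of 2.27 (SE 0.15, adjusted p = 6.27e-07). The NSM difference of 0.24 (95% confidence interval -0.08 to 0.57) was not called at adjusted p = 0.197, was called at 0.36 (adjusted p = 0.0292) without NSM replicate 3, and changed sign to -0.03 when all libraries were scaled to equal sums.

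MT1X was listed at 130.8, 117.9 and 109.8 normalized counts in DMSO and at 19095.5, 26719.9 and 20782 in DSF. It was at 426, 352 and 552 in NSM and at 139820.4, 150076 and 155654 in DSF+NSM. No library of any treated group overlapped DMSO, and the 4 groups did not overlap each other. The rise was 7.51 (SE 0.17) on the log2 scale with DSF (adjusted p = 6.6e-11) and 10.27 with DSF+NSM (adjusted p = 1.41e-12). MT1X was also the metallothionein with the clearest NSM response, 3.71-fold or 1.86 (SE 0.17) on the log2 scale (adjusted p = 3.96e-06), and the value without NSM replicate 3 was 1.69.

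MT1F was listed at 34.5, 21.9 and 32.3 normalized counts in DMSO and at 3416, 4930.8 and 4488 in DSF. It was at 46.1, 36.8 and 53.7 in NSM and at 8479, 8496 and 10318 in DSF+NSM. The NSM libraries lay close above DMSO and the remaining groups were far from both. MT1F rose 145-fold with DSF (7.14 on the log2 scale, SE 0.21, adjusted p = 5.84e-10). Adding NSM to DSF raised it by a further 2.13-fold (1.10, SE 0.21, adjusted p = 0.00121), the smallest ratio among the metallothioneins, and scaled to equal sums this difference was 0.41 and not called (adjusted p = 0.116). The NSM rise of 0.62 (SE 0.21, adjusted p = 0.0275) rested on 29 to 47 estimated reads per library, and was not called without DMSO replicate 2 (0.42, adjusted p = 0.128), without NSM replicate 1 (0.60, adjusted p = 0.0543), with equal sums (0.35, adjusted p = 0.191) or when only these groups were fitted (adjusted p = 0.121).

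MT1B was at 0 in every DMSO and every NSM library, and at 34.7, 37.8 and 20.7 normalized counts in DSF. In DSF+NSM it was at 838, 690.3 and 759. A count of 0 allows up to 3 reads, on average 2.62 normalized counts in a DMSO library and 3.23 in an NSM library, and against those limits MT1B was at least 11.9-fold higher in DSF and at least 291-fold higher in DSF+NSM than in DMSO. Between DSF and DSF+NSM the ratio was 24.5 (4.61 on the log2 scale, SE 0.32, adjusted p = 9.51e-07).

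MT1G was likewise at 0 in DMSO, and at 16.2, 24.9 and 30.5 normalized counts in DSF. It had a value of 0.982, which is 1 read, in NSM replicate 1 and 0 in the other NSM libraries, and it was at 534, 435 and 511 in DSF+NSM. MT1G was at least 9.11-fold higher in DSF and at least 188-fold higher in DSF+NSM than in DMSO, and 20.7-fold higher in DSF+NSM than in DSF (4.35, SE 0.38, adjusted p = 4.7e-06). The ratio of DSF+NSM to NSM, 817 against 1 estimated reads, was 1387 with a 95% counting interval of 248 to 54830. MT1G normalized counts were 0.000848 to 0.00147 of those of MT1X in DSF libraries and 0.0029 to 0.00382 in DSF+NSM. Of its windows, 54 occur in MT1X and 23 in MT2A, and whether reads of those genes entered its counts was not tested. The limits given for MT1B, MT1G and MT1H take every read as the gene's own.

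MT1H was at 0 in DMSO and NSM, and at 4.63, 13.9 and 7.63 normalized counts in DSF, which are 4 to 14 reads. With both drugs it was at 397, 406 and 495. The DSF+NSM mean was 49.6-fold above the DSF mean (5.59 on the log2 scale, SE 0.41, adjusted p = 1.29e-06), the largest ratio between these groups among the genes described. Against the limit of 3 reads in DMSO the DSF+NSM mean was at least 165-fold higher. MT1H passed the filter only through its DSF+NSM libraries, so that adjusted p is no independent support. The DSF mean (8.73, SD 4.75, 25 reads in all) was 3.33-fold above the limit of 3 reads in DMSO, which DSF replicate 1 alone did not reach.

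MT1E stayed close to the limit of detection. It was at 0 in the DMSO libraries, at 1.19, 1.70 and 0 normalized counts in DSF, at 0, 2.98 and 0 in NSM, and at 10.1, 15.2 and 11.9 in DSF+NSM, where the values stand for 21 estimated reads in all. Relative to DSF, with 3 reads, the ratio in DSF+NSM was 11.7 with a counting interval of 3.49 to 61.2, and the limma difference was 2.88 (SE 0.68, adjusted p = 0.00484). With a pseudocount of 0.1 in place of 1 that difference was not called (adjusted p = 0.0809). MT1E passed the filter only through its DSF+NSM libraries, so the call at a pseudocount of 1 is no independent support. Counting intervals cover counting error only, since the reads carried no molecular identifiers. The limits against 3 reads cover counting error in the group at 0 only, and take the mean of the other group as it stands.

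SLC30A1, which encodes the zinc transporter ZnT1, was listed at 75.1, 79.3 and 79.4 normalized counts in DMSO and at 1388, 1897 and 1135 in DSF. It was at 123, 79.4 and 144 in NSM and at 6092, 5672 and 5938 in DSF+NSM. The DSF libraries differed among themselves more than those of DMSO or DSF+NSM (388 SD around a mean of 1473, against 2.46 around 78.0 and 212 around 5901), and NSM replicate 2 was within 0.1 of the highest DMSO value. SLC30A1 rose 18.9-fold with DSF (4.19, SE 0.22, adjusted p = 2.38e-07) and 75.7-fold with DSF+NSM (6.22, SE 0.22, adjusted p = 1.05e-09). Its DSF+NSM libraries were 4.01-fold above DSF (2.03, adjusted p = 2.22e-05). The NSM difference of 0.52 (95% confidence interval 0.04 to 1.00) was not called over all genes (adjusted p = 0.0679), was called without NSM replicate 2 (0.77, adjusted p = 0.0081), and was not called without NSM replicate 3 (0.34), with equal sums (0.25) or with library weights (0.025).

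MTF1, the factor that drives metallothionein transcription, had smaller differences than MT2A, MT1X, MT1F and SLC30A1 in DSF and in DSF+NSM against DMSO. In NSM its difference of 0.61 stood beside 0.24 for MT2A, 0.52 for SLC30A1, 0.62 for MT1F and 1.86 for MT1X. It was listed at 483, 530.4 and 499 normalized counts in DMSO and at 790.01, 777 and 708 in DSF. It was at 818, 718 and 775 in NSM and at 1078, 1072 and 1039 in DSF+NSM. The DSF and NSM libraries overlapped each other, all lay above DMSO, and all lay below DSF+NSM. The rise was 0.59 (SE 0.11, adjusted p = 0.0047) with DSF, 0.61 (SE 0.11, adjusted p = 0.00088) with NSM and 1.08 (SE 0.11, adjusted p = 8.78e-06) with DSF+NSM, and scaled to equal sums these were 0.49, 0.34 and 0.29 and still called. Against DSF the DSF+NSM libraries were higher by 0.49 (adjusted p = 0.00442) and against NSM by 0.47 (adjusted p = 0.0069), and both directions flipped with equal sums, to -0.20 (adjusted p = 0.155) and -0.05 (adjusted p = 0.747). That scaling moves the median of all genes in DSF+NSM against DMSO from 0.03 to -0.75 and in DSF+NSM against DSF from 0.01 to -0.68, because the sums of normalized counts were larger in the DSF+NSM libraries.

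**Figure D3:**
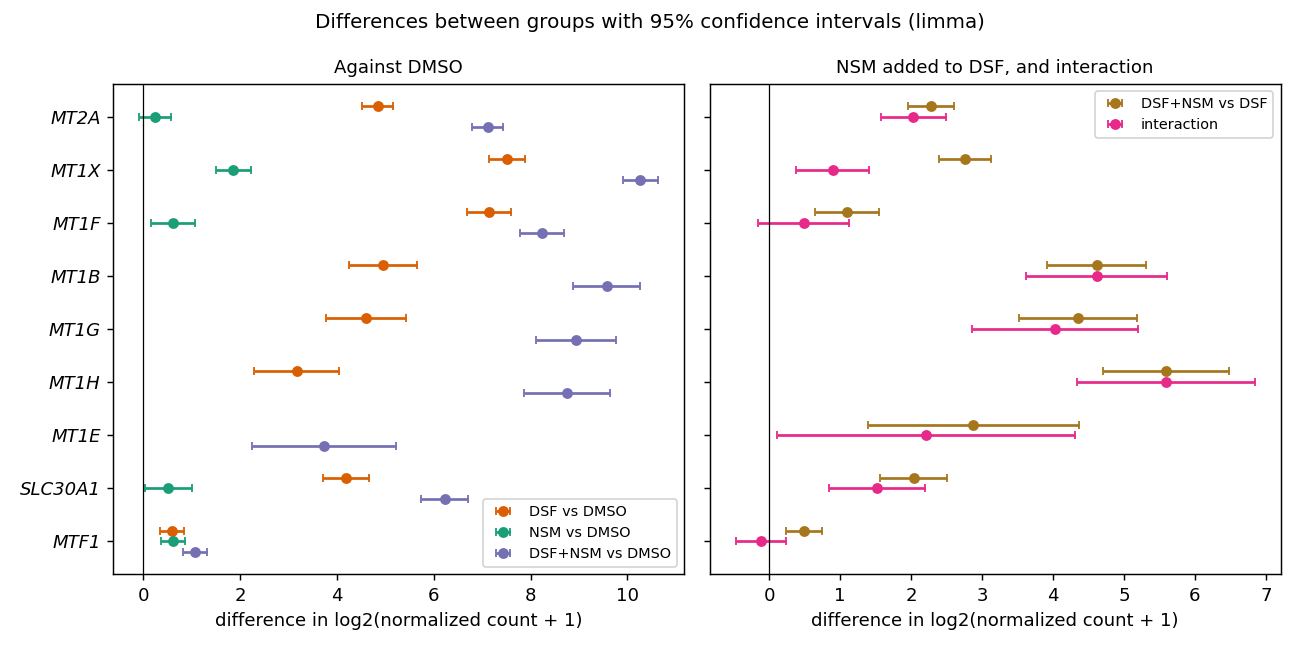
Differences in log2(normalized count + 1) with 95% confidence intervals from limma, with 1 row per gene, for each treatment against DMSO (left) and for DSF+NSM against DSF and the interaction (right). Comparisons in which both groups were at or below 3 reads are left out, and the NSM differences stay below 2 while MT1X reaches 10.27 with DSF+NSM.

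Whether the changes from each drug added up on the log2 scale was tested with the interaction, the DSF+NSM change less the sum of both single-drug changes. It was called higher for 6 of the 9 genes, against 12.1% of all genes tested. MT2A had an interaction of 2.03 (SE 0.21, adjusted p = 7.06e-05), so that DSF+NSM exceeded the product of the single-drug ratios, and SLC30A1 had 1.51 (SE 0.31, adjusted p = 0.00384). For MT1X it was 0.89 (SE 0.24, adjusted p = 0.0156), and 0.47 and not called with equal sums (adjusted p = 0.142). MT1B (4.61), MT1G (4.02) and MT1H (5.59) were called as well, but their DMSO and NSM libraries were at 0 or 1 read, so the interaction there equals or nearly equals the difference between DSF+NSM and DSF. MT1H also passed the filter only through DSF+NSM, so its call is no support for an interaction. MT1F (0.48, 95% confidence interval -0.16 to 1.13, adjusted p = 0.253) and MT1E (2.21, adjusted p = 0.112) were not called. MTF1 had an interaction of -0.12 (95% confidence interval -0.47 to 0.23, adjusted p = 0.619), and under equal sums it was -0.54 and called (adjusted p = 0.0227).

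Within the metallothionein pool, MT1X counts were higher relative to MT2A counts in every treated group. Together the 7 genes took 0.0121% to 0.0137% of all normalized counts in DMSO libraries, 0.0133% to 0.0162% in NSM, 0.442% to 0.586% in DSF and 1.52% to 1.66% in DSF+NSM. The ratio of MT1X to MT2A normalized counts was 0.0689 to 0.0747 in DMSO, 0.440 to 0.473 in DSF and 0.587 to 0.746 in DSF+NSM. In NSM it was 0.180 in replicates 1 and 2 and 0.326 in replicate 3. The ranges of the 4 groups did not overlap. The ratio of MT1F to MT1X was lower with NSM and with both drugs, at 0.186 to 0.295 in DMSO, 0.179 to 0.216 in DSF, 0.0972 to 0.108 in NSM and 0.0566 to 0.0663 in DSF+NSM, where only DMSO and DSF overlapped. These ratios are taken within a library and do not depend on its scaling. These genes share windows with other copies, and no test was run on the ratios.

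**Figure D4:**
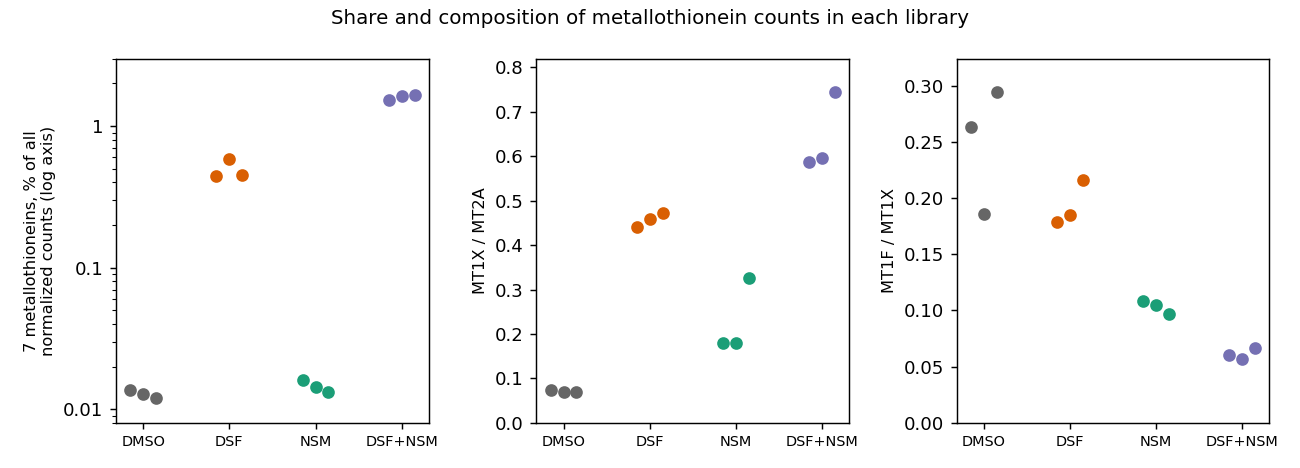
Share of all normalized counts taken by the 7 metallothioneins in percent (left, log axis), and the within-library ratios MT1X to MT2A (middle) and MT1F to MT1X (right), with 1 point per library in each group. The MT1X to MT2A ratio is lowest in DMSO (0.0689 to 0.0747) and highest in DSF+NSM (0.587 to 0.746), and NSM replicate 3 stands apart at 0.326.

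Levels of different genes were compared per kilobase of canonical transcript. In DMSO the order was MT2A (4186 ± 227 normalized counts per kb, SD, n = 3), MT1X (296 ± 26.2), MT1F (69.6 ± 15.8), MTF1 (63.5 ± 3.02) and SLC30A1 (13.2 ± 0.417), and MT1F and MTF1 did not differ beyond their spread. With DSF SLC30A1 (250 ± 65.8) passed MTF1 (95.5 ± 5.58), whose range overlapped that of MT1B (79.1 ± 23.2), and MT1B overlapped MT1G (58.2 ± 17.6). In NSM the order of the leading 5 genes was that of DMSO, with MT1X at 1097 ± 251. With both drugs MT1B (1941 ± 189) came after MT1F (21407 ± 2487), whereas MT1G (1203 ± 125), MT1H (1090.3 ± 136) and SLC30A1 (1001 ± 36.1) overlapped their neighbours in that order, and MTF1 (134 ± 2.66) ranked above MT1E (16.7 ± 3.47) only.

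Lists of other genes of zinc and copper handling were set beside these genes. Of 9 further zinc exporters 4 were tested, and with DSF 0 were called by limma (1 at an unadjusted p under 0.05, median -0.49 against 0.05 over all genes). With DSF, 11.9% of all genes were called higher and 5.95% lower. With DSF+NSM 1 rose and 3 fell, against 28.3% and 24.5% of all genes (median -0.76 against 0.03 over all genes). With equal sums 0 rose and 3 fell (11.3% and 56.3% of all genes). SLC30A7, which loads zinc into the Golgi, was higher by 0.76 (SE 0.29, adjusted p = 0.0449), a difference that was -0.02 with equal sums, and SLC30A6 was lower by -0.90 (SE 0.21, adjusted p = 0.00286). Of 14 zinc importers 11 were tested. With DSF only SLC39A7, which releases zinc from the endoplasmic reticulum, rose (0.49, adjusted p = 0.0433), a call that was lost with equal sums. With DSF+NSM 3 rose and 3 fell (28.3% and 24.5% of all genes, median -0.49), led by SLC39A7 (0.90, adjusted p = 0.000301) and SLC39A14 (-0.97, adjusted p = 0.000298). With equal sums SLC39A7 was at 0.12 and not called (adjusted p = 0.49), and 0 importers were called higher and 9 lower, where 11.3% of all genes were called higher and 56.3% lower.

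Of 9 other reported MTF1 targets, chosen from general knowledge, 2 rose with DSF (11.9% of all genes), NDRG1 (2.04, adjusted p = 2.41e-05) and CSRP1 (1.00, adjusted p = 0.000405). The list median of 0.07 was near that of all genes (0.05). With DSF+NSM 4 rose and 1 fell (28.3% and 24.5% of all genes, median 0.07 against 0.03). With equal sums 2 rose and 4 fell (11.3% and 56.3% of all genes). The changes in DSF+NSM were led by NDRG1 (2.35, adjusted p = 1.02e-06), a hypoxia and stress gene, and by SLC40A1 (-2.01, adjusted p = 0.00392). SLC40A1 encodes the iron exporter ferroportin, and its DSF+NSM libraries held 3.21 to 20.8 normalized counts. NDRG1 was also higher with NSM (1.80, adjusted p = 1.37e-05). Of 12 genes of copper handling, 0 were called with DSF (0 at an unadjusted p under 0.05, median -0.01). With NSM 2 rose and 4 fell, while 25.4% of all genes were called higher and 23.7% lower. With equal sums 1 rose and 5 fell (16.4% and 33.5% of all genes). With DSF+NSM 3 rose and 1 fell (28.3% and 24.5% of all genes), or 3 and 2 with the median of ratios (27.7% and 25.1%). The copper chaperone COX17 was at 0.95 (adjusted p = 0.000469) and SCO1, which delivers copper to cytochrome c oxidase, at -1.41 (adjusted p = 8.43e-05). With equal sums COX17 was at 0.17 in DSF+NSM and not called (adjusted p = 0.334), and 0 copper genes were called higher and 10 lower, with 56.3% of all genes called lower under that scaling.

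Of 7 metal-inducible stress genes, a list chosen with earlier results known, 6 rose with DSF (11.9% of all genes, median 2.96 against 0.05 over all genes). With DSF+NSM 7 rose (28.3% of all genes, median 7.73 against 0.03), of which 6 did so with equal sums (11.3% of all genes). HMOX1, which encodes heme oxygenase, was higher by 10.12 with DSF (adjusted p = 1.5e-10) and by 13.53 with DSF+NSM (adjusted p = 4.22e-12). With NSM 1 rose and 2 fell (25.4% and 23.7% of all genes). Those that fell were the heat shock genes HSPA1A (-2.16, adjusted p = 0.00185) and HSPA1B (-1.67, adjusted p = 0.000707), which are near-identical copies. HSPA1A and HSPA1B were higher by 5.19 and 4.68 with DSF, and by 9.74 and 9.12 with DSF+NSM. The interaction was called higher for 6 of the 7 (12.1% of all genes). With equal sums it was also called lower for the other 1, where 28.6% of all genes were called lower.

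**Figure D5:**
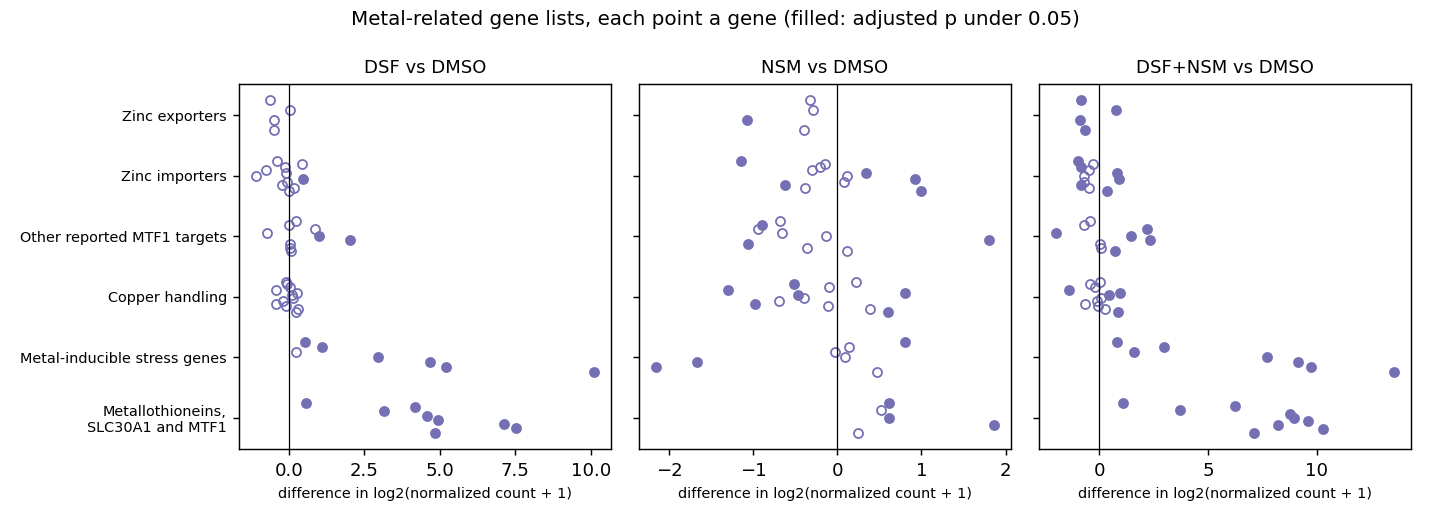
Differences in log2(normalized count + 1) against DMSO for DSF (left), NSM (middle) and DSF+NSM (right), with 1 point per gene, grouped by list. Filled points passed an adjusted p under 0.05 in limma, and the x axes differ between panels. With DSF+NSM the zinc, copper and other MTF1-target lists stay between -2.01 and 2.35. The metallothioneins lie at 7.11 to 10.27, except MT1E at 3.73. Of the stress genes, DNAJB1, HSPA1B, HSPA1A and HMOX1 lie at 7.73 to 13.53, and SLC7A11, GCLM and SRXN1 at 0.83 to 2.97.

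Over the 12 libraries the profile most like that of MT2A, among tested genes with a mean of at least 50 normalized counts, was HMOX1 (Pearson r = 0.997 of log2 values), followed by SLC30A1 (0.995), CRYAB (0.994), TEX19 (0.993) and HSPA6 (0.992). MT1X was most like SLC30A1 (0.993), MT1F most like HMOX1 (0.992) and MT1B most like the non-coding RNA MIR7-3HG (0.995), with MT1G next (0.994). MT1H was most like DNAJB1 (0.993) and BAG3 (0.992), both heat shock co-chaperones. MTF1 was most like the chemokine genes CCL3L3 (0.992) and CCL3 (0.991) and the ferritin gene FTH1 (0.989), and its r with the other 8 genes was 0.753 to 0.848. The 12 points fall into 4 groups and share libraries, so these correlations describe the group pattern.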

How the data were processed

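RNA of 12 SHI-1 libraries (4 groups of 3) was analysed. The authors deposited 1 table per library of signal, a normalized count per gene with DESeq2 scaling over 24 libraries, of which 12 are used here. The supplementary methods name poly(A) selection, STAR and Salmon on GRCh38. The submitters' processing notes name bcl2fastq 2.19, Trimmomatic, Bowtie2, Picard, featureCounts and hg38, so the quantifier is not settled. Read counts were not recovered, since 34.2% to 34.7% of values were whole multiples of a library's step, and depth (10.2 to 19.0 M reads) is an estimate.

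log2(value + 1) was fitted with limma 3.58.1 in R 4.3.3 (trend, robust, group means of 12 libraries, no replicate block, Benjamini-Hochberg adjustment across the 13502 genes that reached 10 in 3 libraries or more, threshold 0.05) and tested on simulated data. Alternatives were pseudocounts of 0.1 and 10, other filters, median-of-ratios and equal-sum scaling, only the groups compared, a replicate block, library weights, and leaving out each library. Replicate numbers name independent experiments and were not used as pairs. Transcripts came from GENCODE 44 and promoters from RefSeq. Python 3.11.15, numpy 2.4.6, pandas 2.3.3, scipy 1.17.1 and matplotlib 3.10.9 were used. The members and lists were chosen with earlier results of these data known. Named genes are all members, for each list the largest called rise and fall in DSF+NSM, and the genes most like a member. CSRP1, GCLM, HSPA1A, HSPA1B and SLC7A11 were named after their values were seen. Of 8 further metallothionein loci 0 were listed.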

Additional observations from a re-analysis of the deposited data

Results flagged for a closer look

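The limma interaction, on the log2 scale, was called higher for 6 of the 9 genes, against 12.1% of all genes tested. For MT2A (2.03), MT1X (0.89) and SLC30A1 (1.51) the difference made by NSM was larger with DSF than without it. For MT1B (4.61), MT1G (4.02) and MT1H (5.59) the DMSO and NSM libraries held 0 or 1 read, so the response to NSM without DSF was not measured and the value restates DSF+NSM against DSF. For MT2A, NSM changed the level 1.19-fold in the absence of DSF and 4.80-fold in its presence, and for SLC30A1 1.48-fold and 4.01-fold. For MT1X these ratios were 3.71 and 6.69. The interaction kept its call without NSM replicate 3, at 1.92 for MT2A, 1.06 for MT1X, 3.86 for MT1G and 1.70 for SLC30A1. The call was lost for MT1X with equal sums (0.47, adjusted p = 0.142) and for MT1G at a pseudocount of 0.1 (3.26, adjusted p = 0.075). Dixon's test of outliers was not applied, since each group has 3 libraries.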

How the results depend on the processing

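Of the single-gene differences under the alternatives, 962 kept their direction and call, 9 lost the call, 6 gained it and 3 changed sign. Under equal sums the sign changed for MT2A in NSM against DMSO (-0.026) and for MTF1 in DSF+NSM against DSF (-0.20) and against NSM (-0.048). Requiring 10 normalized counts in every library left 5 genes to test, and 5 were called for DSF and for DSF+NSM against DMSO, 5 for DSF+NSM against DSF, 5 against NSM and 3 for the interaction, since MT1B, MT1G, MT1H and MT1E then drop out. Library weights called 5 genes for NSM against DMSO, adding MT2A (0.21, adjusted p = 0.00307) and MT1E (1.97, adjusted p = 0.000133), the latter on 3 reads in 1 library. Leaving out 1 library at a time gave 8 calls for DSF, 2 to 4 for NSM and 8 to 9 for DSF+NSM against DMSO, 8 to 9 against DSF and NSM, and 6 to 7 for the interaction. Without NSM replicate 2 the interaction of MT1E was called (2.88, adjusted p = 0.0383), and MT1G lost its interaction call at a pseudocount of 0.1 (3.26, adjusted p = 0.075). MTF1 lost its call in DSF+NSM against NSM when only these groups were fitted (adjusted p = 0.0938). The fit with the replicate block called 8, 3 and 9 genes against DMSO for DSF, NSM and DSF+NSM, 9 and 9 for DSF+NSM against DSF and NSM, and 6 for the interaction, the same counts as without it. The share of all genes called was computed for the main fit, median-of-ratios scaling and equal sums only. Counts of genes called under the other settings have no such share beside them, and cannot be read as a change particular to these genes. Same-numbered libraries of different groups deviated together (correlation above 0.1) in 2 of 18 pairs, and 6 of 12 libraries correlated best with their own number. The cause of these changes was not tested. With 3 libraries a group and values of 0 to 14 reads, MT1E in all groups and MT1H in DSF are limited by depth, and p-values measure the spread between these experiments.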
